A study of Mus musculus with 6 samples.

Results

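The transcription factors that set the fate of helper T cells were followed here in CD4+CD25+ regulatory T cells (Treg) of Mbd2 knockout mice. The set was Tbx21, Gata3, Rora, Bcl6, Stat3, Stat4, Stat6, Ahr and Maf, found by gene symbol in the platform's annotation. These 9 genes were measured by 16 of the 22626 probe sets that are not controls. A probe set is the group of short probes on the array that reports a transcript. The question was whether loss of Mbd2 lets Treg take up the regulators of other helper fates.

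The RNA came from cells separated magnetically for CD4 and CD25. There were 3 samples from Mbd2 knockout mice (genotype MBD2–/–) and 3 from wild-type mice, all on the Balb/c background, each on 1 array. The labels describe the samples as independent and give no age, sex or treatment. The separation was on surface CD4 and CD25, with no Foxp3 reporter named, so the preparation may hold other cells that carry these surface markers or were retained with them. The number of arrays limits the precision.

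A naive CD4 T cell that meets antigen can become a Th1, Th2, Th17 or follicular helper (Tfh) cell, according to the cytokines around it. Each path has a cytokine-activated STAT protein and a lineage transcription factor. Stat4 and T-bet, the product of Tbx21, drive Th1 cells. Stat6 and Gata3 drive Th2 cells, Stat3 with RORα (from Rora) and the ligand sensor Ahr acts in Th17 cells, and Bcl6 and Maf act in Tfh cells. Treg use several of the same factors when they are activated in tissues, so the factors are not absent from Treg in the normal state. Mbd2 binds methylated CpG and recruits a repressor complex, which is why its loss could in principle raise methylated genes.

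Pairs of arrays correlated at 0.749 to 0.767 (Pearson, across probe sets) where they included wild-type replicate 3, against 0.956 to 0.997 where they did not. Results are therefore given with 6 arrays and with the 5 arrays that leave it out (the 5-array fit). Knockout replicate 2 had the next lowest correlations, and a further fit, added after this was seen, leaves out that array too (the 4-array fit). Mbd2 itself, on its brighter probe set, read 5.93, 5.71 and 6.14 in knockout replicates 1 to 3, against 8.80, 8.66 and 6.93 in wild-type replicates 1 to 3 (log2 values). The Y-linked Eif2s3y read 4.16, 7.62 and 7.88 in knockout replicates 1 to 3, against 4.05 to 4.17 in the wild-type arrays, so this gene divided the knockout group, and sex, which the labels do not give, was not a term in the fit.

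No tested probe set of a lineage factor passed the test as higher in the knockout preparations in any of the 3 fits. Markers of other cells also differed between the preparations, as given below, so this result is not for Treg alone. With 6 arrays, 0 of the 12 member probe sets tested passed the threshold (limma adjusted p under 0.05), and 0 had an unadjusted p under 0.05, against 4.08% of all tested probe sets. Over all 13575 probe sets tested, 0.103% passed with 6 arrays. In the 5-array fit, 1 of the 12 passed, a Rora probe set, which was lower in knockout. Of all probe sets, 1.4% passed in that fit, 0.67% higher and 0.729% lower. The remaining 4 member probe sets had a mean log2 value under 5.18, the level below which the dimmest 40% of probe sets were left out, and were described but not tested.

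**Figure D1:**
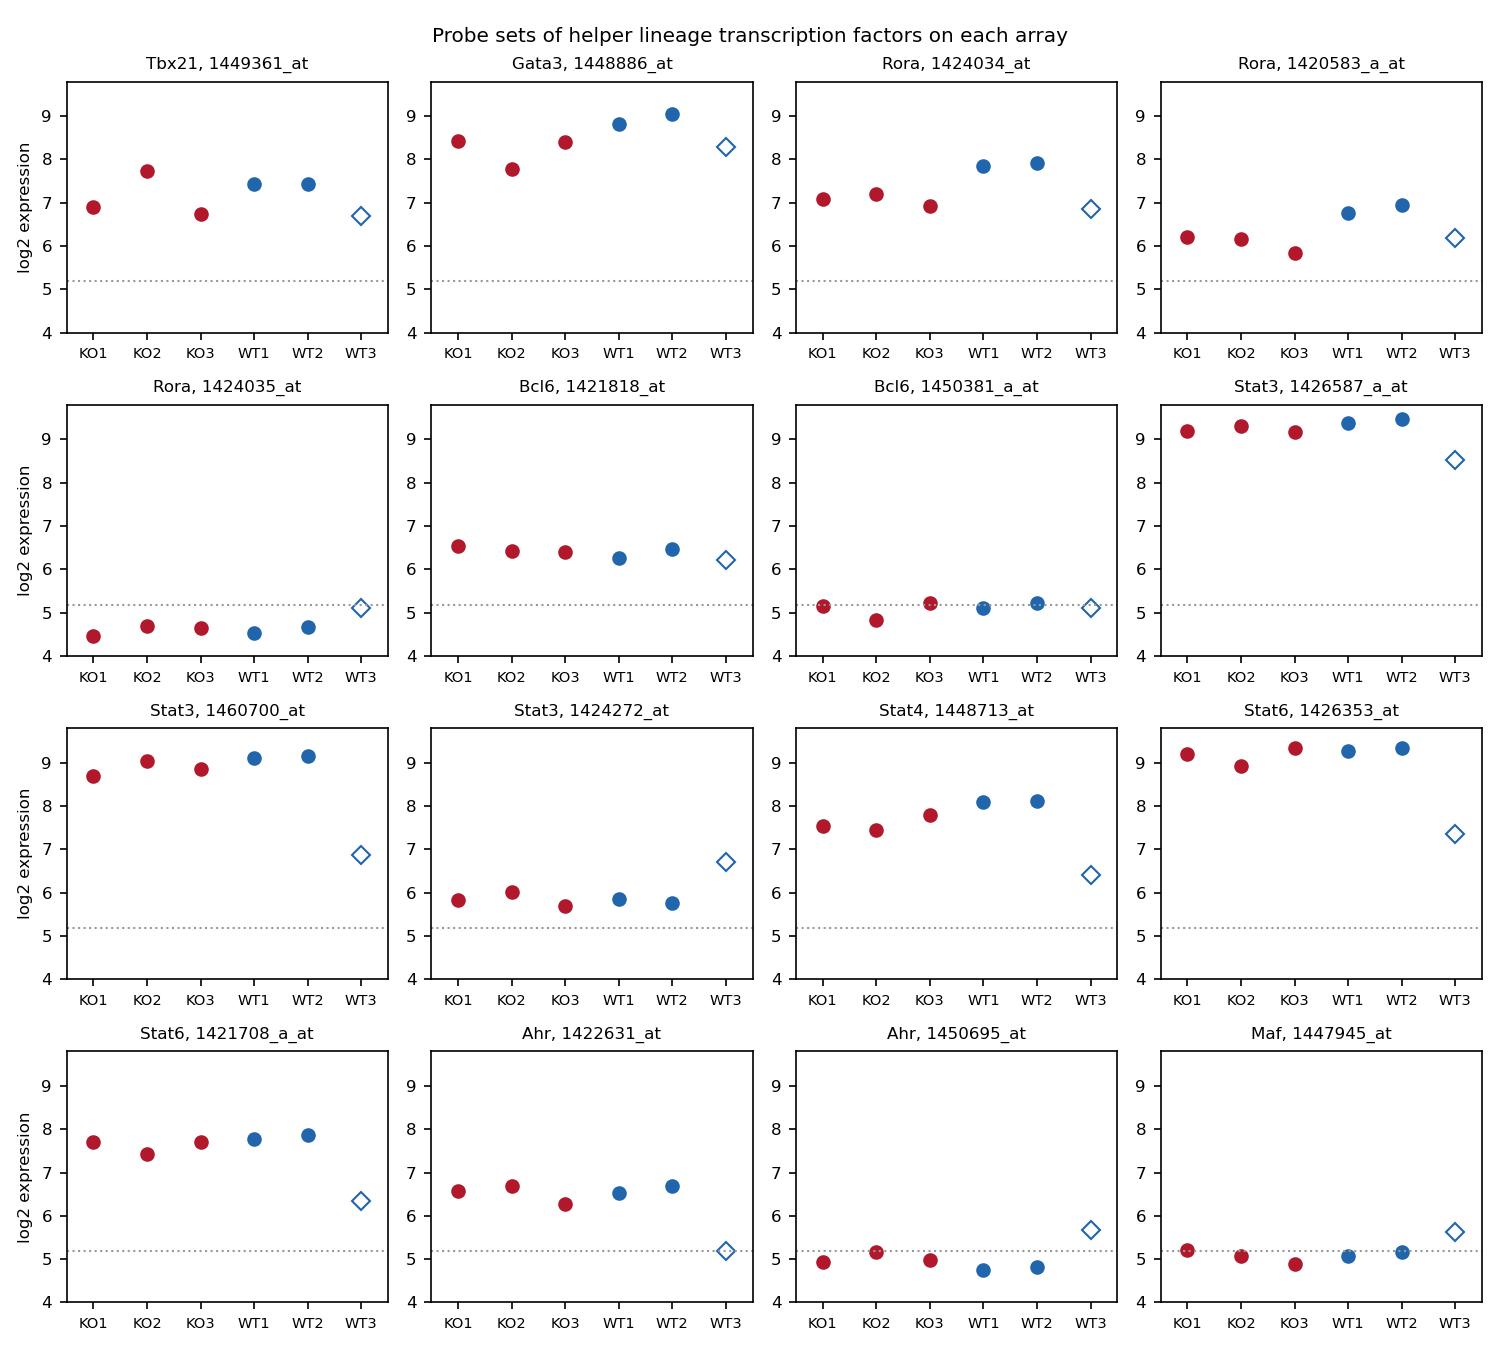
Log2 expression (vertical axis) of each of the 16 probe sets on each array, Mbd2 knockout in red and wild type in blue, with wild-type replicate 3 as an open diamond. The dotted line is the filter level of 5.18. Both brighter Rora probe sets, Gata3 and Stat4 read lower on the 3 knockout arrays than on wild-type replicates 1 and 2, while wild-type replicate 3 lay below all knockout arrays for Stat4.

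The direction of 4 of the 8 tested factors, Stat3, Stat4, Stat6 and Ahr, depended on wild-type replicate 3 on their brightest probe sets, while Tbx21, Gata3, Rora and Bcl6 kept theirs with and without it. That array was the lowest of the 6 in 9 of the 12 tested member probe sets, and in 63.8% of all tested probe sets. Over all 22626 probe sets, before the filter, it was the lowest in 41.8% and the highest in 42.6%. Its log2 values were also less spread, with a standard deviation of 1.36, against 1.78 to 1.83 on the other arrays. The array was thus on a narrower scale, and the part of this in the changes of direction was not tested. With 6 arrays, 7 member probe sets had a log2 difference (knockout minus wild type) above 0 and 5 below, with a median of 0.076, against a median of 0.15 over all tested probe sets, of which 36.8% were below 0. Without that array, 2 were above 0 and 10 below, with a median of -0.24, against -0.064 over all. In that fit 60.7% of all tested probe sets were below 0. Bulk RNA cannot tell fewer cells of a type from less RNA per cell.

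Overlap between the groups was also counted. With 6 arrays, knockout and wild-type arrays overlapped for all 12 tested member probe sets. In the background, 10.4% of probe sets were higher and 5.72% lower without overlap. In the 5-array fit, 7 of the 12 read lower on every knockout array than on wild-type replicates 1 and 2, and 0 read higher. The background was 31.8% lower and 15.6% higher.

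Rora was the factor with the lowest level in knockout relative to wild type when wild-type replicate 3 was left out. It encodes a nuclear receptor that acts in Th17 cells and innate lymphoid cells and is also expressed in activated and tissue Treg. Its RefSeq promoter window (250 bases before to 50 after the start, build GRCm38.p6, C57BL/6J reference) is shown because Rora is the member that passed the test and because Mbd2 reads methylated CpG. Those of Gata3 and Stat4, the other members with an unadjusted p under 0.05 in the 5-array fit, are shown for comparison. Capitals mark each CpG, read 5′ to 3′ on the gene's strand.
Rora, chr9:68653536-68653835, plus strand: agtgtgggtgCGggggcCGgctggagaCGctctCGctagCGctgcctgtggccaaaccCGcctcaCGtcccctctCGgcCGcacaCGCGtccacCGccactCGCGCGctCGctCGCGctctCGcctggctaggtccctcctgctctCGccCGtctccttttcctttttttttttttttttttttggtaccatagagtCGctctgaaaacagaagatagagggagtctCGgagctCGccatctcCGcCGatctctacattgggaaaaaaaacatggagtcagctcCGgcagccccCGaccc
Gata3, chr2:9878551-9878850, minus strand: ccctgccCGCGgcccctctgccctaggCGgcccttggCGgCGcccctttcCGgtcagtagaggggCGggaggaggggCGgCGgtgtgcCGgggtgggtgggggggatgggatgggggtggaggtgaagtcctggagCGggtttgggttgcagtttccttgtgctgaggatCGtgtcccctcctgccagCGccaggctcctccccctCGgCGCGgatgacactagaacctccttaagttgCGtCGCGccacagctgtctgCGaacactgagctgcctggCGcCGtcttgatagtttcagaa
Stat4, upstream start, chr1:51986898-51987197, plus strand: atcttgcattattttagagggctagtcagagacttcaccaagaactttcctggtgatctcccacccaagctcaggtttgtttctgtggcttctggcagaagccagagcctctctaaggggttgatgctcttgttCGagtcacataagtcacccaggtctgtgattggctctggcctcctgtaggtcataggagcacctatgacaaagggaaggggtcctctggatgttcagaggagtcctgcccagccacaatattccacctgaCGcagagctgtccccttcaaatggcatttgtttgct
Stat4, downstream start, chr1:52007990-52008289, plus strand: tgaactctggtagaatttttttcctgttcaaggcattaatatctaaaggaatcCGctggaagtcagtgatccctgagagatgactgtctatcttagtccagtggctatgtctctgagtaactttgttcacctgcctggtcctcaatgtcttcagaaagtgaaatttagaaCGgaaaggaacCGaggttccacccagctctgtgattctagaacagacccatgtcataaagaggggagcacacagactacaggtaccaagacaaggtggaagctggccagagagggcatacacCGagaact

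The promoter windows differed in CpG content. Rora's held 28 CpG and Gata3's 22, while the 2 Stat4 windows held 2 and 4. The median over 32851 windows of this length was 7. Rora and Gata3 lay above that median and Stat4 below it. These members were picked for their p-values, and each read lower in knockout than in wild-type replicates 1 and 2. Because of that choice, they cannot show whether CpG content goes with the direction of a difference. Windows were found for 7 of the 9 members. Those of Tbx21, Stat3 and Stat6 held 21, 15 and 8 CpG, and the 2 windows of Bcl6 held 14 and 31. Methylation was not measured on these arrays. The STAT motif TTCNNNGAA, which reads the same on both strands, was present in 2 of the 9 member windows, both of Bcl6, and in 8.30% of all windows. The GATA motif AGATAA, searched on both strands, was in 0 of the 9 and in 11.2% of all.

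The brightest Rora probe set, 1424034_at, read 7.08, 7.20 and 6.93 in knockout replicates 1 to 3, against 7.85, 7.93 and 6.85 in wild-type replicates 1 to 3. The knockout arrays lay close together and below wild-type replicates 1 and 2, and wild-type replicate 3 lay below them all. In the 5-array fit, Rora fell 1.76-fold (log2 difference -0.82, SE 0.12, limma adjusted p = 0.0383). With 6 arrays the log2 difference was -0.47 (SE 0.34, limma adjusted p = 0.829). The call was also lost after a further quantile normalization of the 5 arrays (log2 difference -0.76, adjusted p = 0.0529) and with the mean of both tested Rora probe sets (log2 difference -0.80, adjusted p = 0.0518). It held in the 4-array fit, which also leaves out knockout replicate 2 (log2 difference -0.88, adjusted p = 0.0017), but not when knockout replicate 1, knockout replicate 3, wild-type replicate 1 or wild-type replicate 2 was left out beside wild-type replicate 3 (log2 differences -0.86 to -0.75, adjusted p from 0.113 to 0.383).

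Another Rora probe set, 1420583_a_at, read 6.21, 6.17 and 5.85 in knockout replicates 1 to 3, against 6.76, 6.94 and 6.19 in wild-type replicates 1 to 3. The knockout arrays again lay below wild-type replicates 1 and 2, but wild-type replicate 3 lay among them, and the probe set did not pass. Its log2 difference was -0.77 without wild-type replicate 3 (limma adjusted p = 0.0616) and -0.55 with 6 arrays (limma adjusted p = 0.829). The remaining Rora probe set, 1424035_at, was dim, with 4.47 to 4.69 on the knockout arrays and 4.54 to 5.10 on the wild-type arrays.

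The 3 genes whose pattern over the 6 arrays was nearest to Rora, among 8189 other tested genes, were Rrad, Dipk2a and Ebi3. Likeness was the root mean square difference of the log2 values after each gene's mean was taken off, which was 0.059 for Rrad, 0.087 for Dipk2a and 0.11 for Ebi3. Rrad encodes a small GTPase of the RGK family. Ebi3 encodes a subunit shared by the cytokines IL-27 and IL-35, the second of which is known as a Treg product. Ebi3 read 6.58, 6.96 and 6.49 in knockout replicates 1 to 3, against 7.29, 7.44 and 6.27 in wild-type replicates 1 to 3.

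Ahr, a ligand-activated sensor of aromatic compounds that supports IL-22 production in Th17 cells, did not pass the test. Its brighter probe set read 6.57, 6.70 and 6.28 in knockout replicates 1 to 3, against 6.52, 6.68 and 5.20 in wild-type replicates 1 to 3. The knockout arrays overlapped wild-type replicates 1 and 2, and wild-type replicate 3 was the lowest of the 6. The log2 difference was -0.085 without wild-type replicate 3, with a 95% interval of -0.45 to 0.28 (limma adjusted p = 0.764), and 0.38 with 6 arrays (limma adjusted p = 0.829). The dim Ahr probe set, untested, read 4.94 to 5.16 on the knockout arrays, above wild-type replicates 1 and 2 at 4.74 and 4.81 and below wild-type replicate 3 at 5.67. Of 8 partners and targets of Ahr, 1 passed the filter, Tiparp, which encodes a repressor induced by Ahr, with log2 differences of 0.33 without wild-type replicate 3 (limma adjusted p = 0.506) and 0.90 with 6 arrays (limma adjusted p = 0.829). The classical target Cyp1a1 was dim on every array, at 4.54 to 4.58 in knockout and 4.54 to 4.63 in wild type.

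Stat3 carries the signals of IL-6, IL-21 and IL-23 and is needed for Th17 cells. Its brightest probe set, 1426587_a_at, read 9.19, 9.31 and 9.16 in knockout replicates 1 to 3, against 9.38, 9.47 and 8.52 in wild-type replicates 1 to 3. The probe set 1460700_at read 8.70, 9.03 and 8.86 in knockout replicates 1 to 3, against 9.12, 9.16 and 6.86 in wild-type replicates 1 to 3. On both, the knockout arrays lay just below wild-type replicates 1 and 2 and well above wild-type replicate 3. The log2 differences without wild-type replicate 3 were -0.20 and -0.28 (limma adjusted p = 0.292 and 0.26), and with 6 arrays 0.10 and 0.48 (limma adjusted p = 0.914 and 0.829). The dimmer probe set 1424272_at ran the other way in both fits, at 0.037 and -0.26 (limma adjusted p = 0.883 and 0.829), with its highest value, 6.70, in wild-type replicate 3.

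For the Th1 lineage, Tbx21 did not pass. T-bet activates Ifng and Cxcr3 and, in Treg, marks cells that follow Th1 responses. Tbx21 read 6.90, 7.73 and 6.75 in knockout replicates 1 to 3, against 7.43, 7.43 and 6.69 in wild-type replicates 1 to 3. Knockout replicate 2 was the highest of the 6 arrays, and the other knockout arrays lay between wild-type replicate 3 and the other wild-type arrays. The log2 difference was -0.31 without wild-type replicate 3, with a 95% interval of -1.02 to 0.41 (limma adjusted p = 0.566), and -0.061 with 6 arrays (limma adjusted p = 0.96). In the 4-array fit (neither wild-type replicate 3 nor knockout replicate 2) it fell (log2 difference -0.61, limma adjusted p = 0.00578).

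Stat4, the transducer of IL-12 in Th1 cells, read 7.55, 7.44 and 7.80 in knockout replicates 1 to 3, against 8.10, 8.11 and 6.41 in wild-type replicates 1 to 3. The knockout arrays lay below wild-type replicates 1 and 2, which were nearly equal, and all above wild-type replicate 3. The log2 difference was -0.51 without wild-type replicate 3 (95% interval -0.83 to -0.19, limma adjusted p = 0.114) and turned to 0.056 with 6 arrays (limma adjusted p = 0.973).

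Gata3, the Th2 master regulator that Treg also need to keep Foxp3 levels under inflammation, read 8.43, 7.78 and 8.40 in knockout replicates 1 to 3, against 8.82, 9.05 and 8.28 in wild-type replicates 1 to 3. All knockout arrays lay below wild-type replicates 1 and 2, and replicate 2 was the lowest of the 6. The log2 difference was -0.73 without wild-type replicate 3 (95% interval -1.28 to -0.19, limma adjusted p = 0.149) and -0.51 with 6 arrays (limma adjusted p = 0.829). It kept its sign in every fit that left out 1 array, at -0.73 to -0.30.

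Stat6, which carries the IL-4 and IL-13 signal, read 9.19, 8.92 and 9.34 in knockout replicates 1 to 3, against 9.27, 9.33 and 7.35 in wild-type replicates 1 to 3 on its brighter probe set. Knockout and wild-type arrays were mixed, apart from wild-type replicate 3. The log2 differences without wild-type replicate 3 were -0.15 (95% interval -0.50 to 0.20) and, on the dimmer probe set, -0.21 (95% interval -0.51 to 0.086), with limma adjusted p = 0.561 and 0.359. With 6 arrays they were 0.50 and 0.29 (limma adjusted p = 0.829 and 0.838).

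Among the Tfh factors, Bcl6 differed little. Bcl6 is the repressor that defines Tfh cells and follicular Treg and is also expressed in germinal centre B cells. Its brighter probe set read 6.54, 6.42 and 6.41 in knockout replicates 1 to 3, against 6.27, 6.48 and 6.21 in wild-type replicates 1 to 3. The log2 difference was 0.083 without wild-type replicate 3 (95% interval -0.19 to 0.35, limma adjusted p = 0.684) and 0.14 with 6 arrays (limma adjusted p = 0.833). Its dim probe set read 4.82 to 5.23 on the knockout arrays and 5.10 to 5.23 on the wild-type arrays. Maf, which supports IL-10, IL-4 and IL-21 production in several helper lineages and in Treg, had a single probe set just under the filter level. Maf read 5.22, 5.08 and 4.89 in knockout replicates 1 to 3, against 5.06, 5.17 and 5.63 in wild-type replicates 1 to 3, with groups that overlapped.

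**Figure D2:**
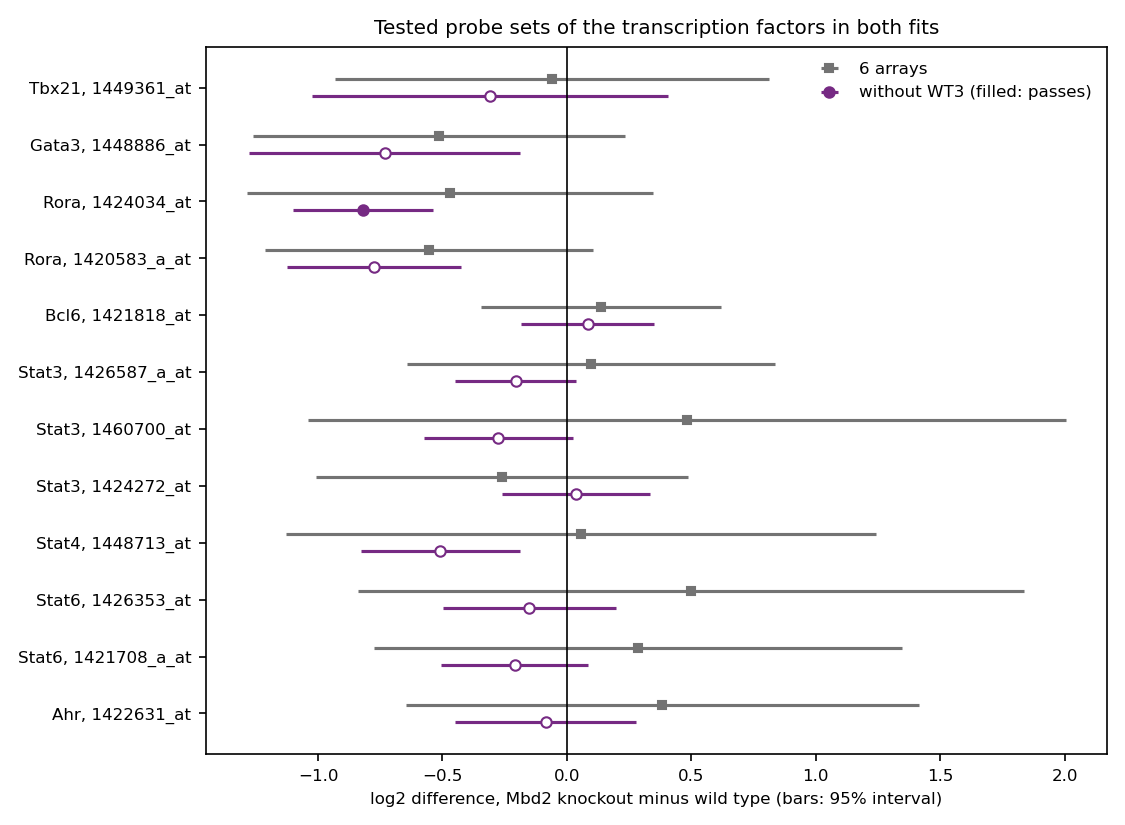
Log2 difference, Mbd2 knockout minus wild type (horizontal axis), with its 95% interval for the 12 tested probe sets, in the 6-array fit (grey squares) and without wild-type replicate 3 (purple circles, filled where the adjusted p passed). The filled point is Rora at -0.82, and the STAT probe sets at 0.056 to 0.50 with 6 arrays lie at -0.51 to -0.15 without that array, except the dim Stat3 probe set.

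The 4-array fit made the most calls of the 3 fits. In it 6 of the 12 tested member probe sets passed, all lower in knockout, against 18.7% of all probe sets, 10.3% lower and 8.37% higher. They were both Rora probe sets, Tbx21, Gata3, Stat4 (log2 difference -0.43, limma adjusted p = 0.0304) and the Stat3 probe set 1460700_at (log2 difference -0.36, limma adjusted p = 0.0316). Gata3 was at -0.52 (limma adjusted p = 0.0155). This fit has 2 arrays a group and was chosen after the arrays were compared.

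The genes these factors act with were followed in lists for each lineage, compiled with earlier results of these data known. In the 5-array fit, 0.818% of all 8190 tested genes passed higher and 0.757% lower, and 0.122% and 0% with 6 arrays. With 6 arrays, none of the list genes passed. Over the 59 tested genes of all lists, each counted once, 6 then had an unadjusted p under 0.05, against 367 of the 8190. With 5 arrays, 1 of the 59 rose and 6 fell.

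Of 14 tested Th1 genes, 1 rose and 2 fell without wild-type replicate 3, with a list median of -0.28, against -0.060 for all genes. With 6 arrays the list medians were 0.078 for Th1, 0.074 for Th17 and -0.18 for Tfh genes, against 0.16 for all genes. Cxcr3, the T-bet-dependent chemokine receptor of Th1 cells and Th1-type Treg, fell 3.82-fold (log2 difference -1.93, SE 0.13, limma adjusted p = 0.00636). Cxcr3 read 7.97, 8.01 and 7.69 in knockout replicates 1 to 3, against 9.74, 9.91 and 8.33 in wild-type replicates 1 to 3, so it was lower in knockout on every array. Tnf, which encodes an inflammatory cytokine, fell 1.81-fold (limma adjusted p = 0.0495). Eomes, the T-box relative of Tbx21 in CD8 T and NK cells, rose 2.25-fold (log2 difference 1.17, SE 0.12, limma adjusted p = 0.0168). Eomes read 7.91, 8.01 and 7.74 in knockout replicates 1 to 3, against 6.78, 6.65 and 6.09 in wild-type replicates 1 to 3. The paired T-box genes thus stood apart, Eomes higher on every knockout array and Tbx21 overlapping. The difference between Eomes and Tbx21 was not tested. The Th1 cytokine gene Ifng read 6.18, 8.22 and 5.84 in knockout replicates 1 to 3, against 7.47, 7.59 and 5.63 in wild-type replicates 1 to 3, with groups that overlapped (limma adjusted p = 0.536 without wild-type replicate 3). Like Tbx21, Ifng was highest in knockout replicate 2.

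No Th2 gene of 10 tested passed in the 6-array or 5-array fit by limma, where 0 and 4 had an unadjusted p under 0.05, against 367 and 1857 of all 8190 genes. The median was -0.33 without wild-type replicate 3 and -0.059 with 6 arrays. The smallest p without that array belonged to Gfi1, a repressor that supports Th2 growth (log2 difference -0.72, limma adjusted p = 0.0581), Junb (-0.56, adjusted p = 0.118) and Jak3, the kinase of the shared cytokine receptor chain (-0.67, adjusted p = 0.136). Il4 read 5.89, 6.39 and 5.79 in knockout replicates 1 to 3, against 6.35, 6.41 and 5.40 in wild-type replicates 1 to 3. Il5 and Il13 were under the filter level and untested. Il13 read 5.06, 5.42 and 5.02 in knockout replicates 1 to 3, against 4.93, 4.90 and 4.63 in wild-type replicates 1 to 3, higher on every knockout array. The untested Th2 receptor gene Ccr8 ran the other way, at 4.65, 4.60 and 4.84 in knockout replicates 1 to 3, against 5.42, 5.24 and 5.59. Il5 overlapped between the groups.

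Of 12 tested Th17 genes, 0 rose and 2 fell without wild-type replicate 3, with a median of -0.16. Ccr6, the chemokine receptor of Th17 cells and effector Treg, fell 2.48-fold (log2 difference -1.31, limma adjusted p = 0.0124), and Batf, an AP-1 partner needed for Th17 and tissue Treg, fell 1.54-fold (log2 difference -0.62, limma adjusted p = 0.0481). Il17a, the signature cytokine, was dim, with 4.65 to 4.77 on the knockout arrays and 4.63 to 5.52 on the wild-type arrays.

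Of 12 tested Tfh genes, 0 rose and 1 fell without wild-type replicate 3, with a median of -0.54. It was Icos, a costimulatory receptor of Tfh cells and Treg, at a log2 difference of -0.96 (limma adjusted p = 0.028). Il21, the cytokine gene that the Tfh and Th17 lists share, read 6.73 to 7.23 on the knockout arrays, against 6.22, 6.19 and 4.29 in wild-type replicates 1 to 3. It lay higher on every knockout array but did not pass (log2 difference 0.78, limma adjusted p = 0.0744 without wild-type replicate 3).

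Among 13 tested genes of other STATs and of STAT inhibitors, 12 had a log2 difference below 0 without wild-type replicate 3. So did 4905 of all 8190 tested genes. The list median was -0.26, and 1 gene passed. Cish, which encodes an inhibitor induced by STAT5, fell 1.58-fold (log2 difference -0.66, limma adjusted p = 0.0452). With 6 arrays the median of this list was 0.35, with 8 genes above 0, against 5269 of all 8190. In the 4-array fit, 2 Th1 genes rose and 6 fell, 0 Th2 genes rose and 4 fell, 1 Th17 gene rose and 2 fell, 2 Tfh genes rose and 7 fell, and 0 STAT genes rose and 4 fell. Those that rose were Eomes and Hlx of the Th1 list, Il21 of the Th17 and Tfh lists, and Cd200 of the Tfh list. Of all genes, 9.07% rose and 11% fell in that fit.

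**Figure D3:**
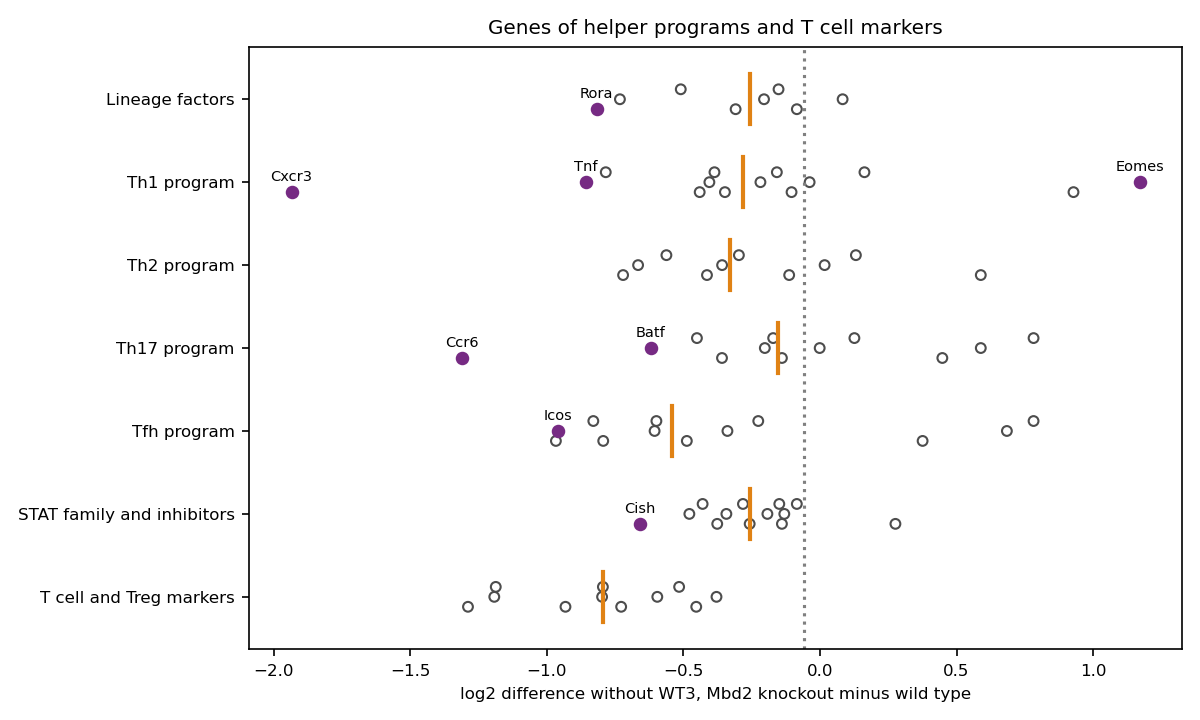
Log2 difference without wild-type replicate 3 (horizontal axis) of each tested gene, with the 8 tested lineage factors in the top row, helper programs below and T cell and Treg markers in the bottom row. Filled purple points passed the test, orange bars are list medians and the dotted line is the median of all genes at -0.060. Cxcr3 lies farthest to the left, Eomes farthest to the right, and all T cell and Treg markers lie left of 0.

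T cell and Treg markers themselves read lower on the knockout arrays than on wild-type replicates 1 and 2, but not than on wild-type replicate 3. Their mean log2 level (12 of 12 genes on the array) was 8.18 to 9.03 on the knockout arrays, against 9.50 and 9.54 in wild-type replicates 1 and 2 and 8.31 in wild-type replicate 3. With 6 arrays 9 of the 11 tested markers had a log2 difference below 0 and 2 above, with a median of -0.45, and 0 passed. Of all 8190 genes, 2921 were then below 0. With 5 arrays all 11 tested markers were below 0, with a median of -0.79, against 4905 of all 8190 genes below 0. By limma 0 passed, and 7 had an unadjusted p under 0.05, against 1857 of all 8190 genes. Foxp3, the factor that defines Treg, read 7.98, 6.62 and 8.17 in knockout replicates 1 to 3, against 8.83, 8.74 and 6.93 in wild-type replicates 1 to 3 (log2 difference -1.19, limma adjusted p = 0.212 without wild-type replicate 3). The log2 differences of the 11 markers ran from -1.29 for Ikzf4 to -0.38 for Cd247 (limma adjusted p = 0.136 and 0.326). Ikzf4 encodes a partner of Foxp3, and Cd247 a chain of the T cell receptor complex. Of the lineage factors on their brightest probe sets, Rora at -0.82, Gata3 at -0.73 and Stat4 at -0.51 lay within this range. Tbx21 at -0.31, Stat3 at -0.20, Stat6 at -0.15, Ahr at -0.085 and Bcl6 at 0.083 lay above it. Without knockout replicate 2 as well, 9 of the 11 markers fell, with a median of -0.42.

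Marker lists of other cells read higher on all knockout arrays than on all wild-type arrays, except that of innate lymphoid cells. The mean log2 level of granulocyte markers (11 of 12 genes on the array) was 9.65 to 9.99 on the knockout arrays and 5.59 to 6.42 on the wild-type arrays. For monocyte, macrophage and dendritic cell markers (12 of 14) it was 6.85 to 8.14 on the knockout arrays and 5.22 to 5.93 on the wild-type arrays. B cell markers (8 of 10) gave 7.19 to 7.67 on the knockout arrays and 5.68 to 6.49 on the wild-type arrays. Plasma cell markers (5 of 6) gave 9.13 to 10.54 on the knockout arrays and 7.12 to 8.81 on the wild-type arrays. Mast cell and basophil markers (7 of 8) gave 6.03 to 6.61 on the knockout arrays and 5.18 to 5.63 on the wild-type arrays. CD8 T cell and NK cell markers (9 of 10), a list that holds Eomes, gave 6.81 to 7.82 on the knockout arrays and 6.05 to 6.72 on the wild-type arrays. Of those 9 genes, Eomes was the only 1 higher on every knockout array than on every wild-type array, against 886 of all 8190 genes. Each of the other genes of this list overlapped between the groups, so the separation of the list mean was not shared by them. With 6 arrays 8 of the 9 had a log2 difference above 0. Innate lymphoid cell markers (7 of 8) overlapped, at 6.57 to 7.11 on the knockout arrays and 6.36 to 6.73 on the wild-type arrays. Knockout replicate 2, with the highest Tbx21 and the lowest Gata3, had the highest mean of each of these other lists among the 6 arrays and the lowest of the T cell and Treg list. The part of these shifts in the levels of the lineage factors was not tested.

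**Figure D4:**
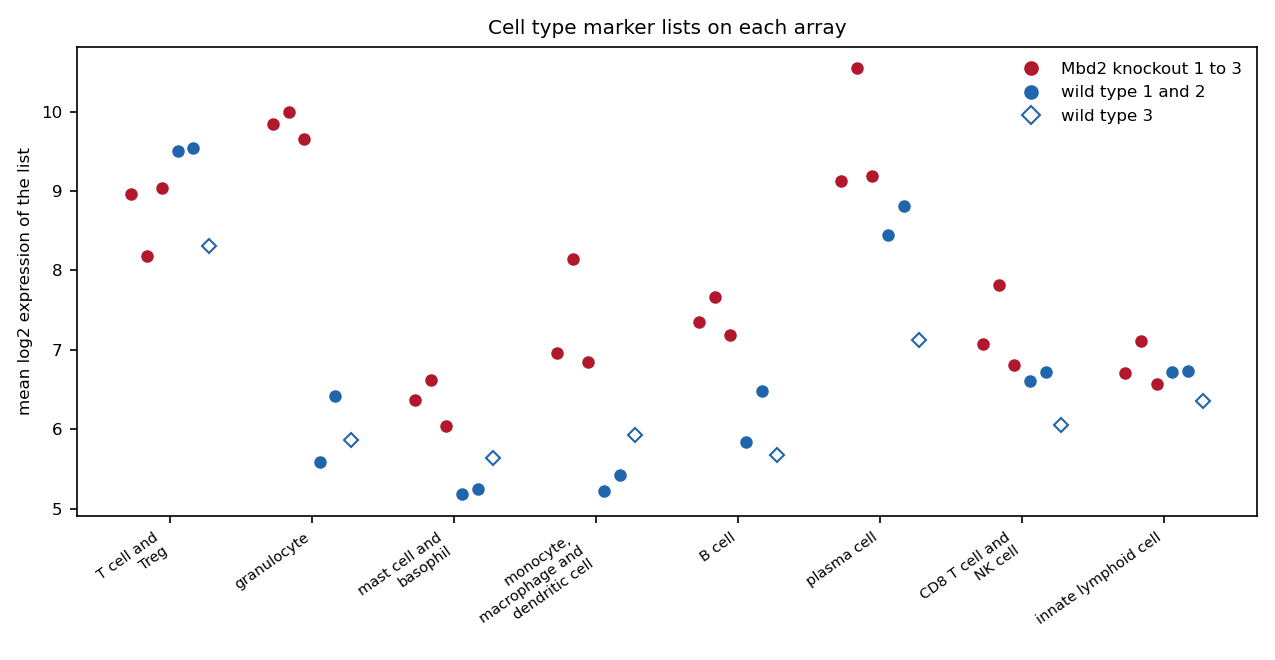
Mean log2 expression (vertical axis) of each cell type marker list on each array, Mbd2 knockout in red and wild type in blue, with wild-type replicate 3 as an open diamond. The T cell and Treg list lies at 8.18 to 9.03 on the knockout arrays, under wild-type replicates 1 and 2, and the granulocyte list at 9.65 to 9.99 on the knockout arrays, above all wild-type arrays.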

How the data were processed

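The deposited values were log2 expression values per probe set, which the authors made with RMA per the submitters' processing notes. The version of RMA and the arrays it was run on together are not stated in those notes. Controls (64 of 22690 probe sets) were dropped. Symbols from the platform's table were updated by gene ID through RefSeq (GRCm38.p6), and 20380 of the 22626 probe sets had exactly 1. After the dimmest 40% by mean over the 6 arrays were dropped, 13575 entered limma 3.58.1 (R 4.3.3; lmFit, then eBayes) with group as sole term, and p-values were adjusted over all of them by Benjamini-Hochberg. The same probe sets were fitted without wild-type replicate 3. A list gene stood for its brightest tested probe set. The fit was also run on simulated data with independent normal noise of the spread seen without wild-type replicate 3. Those data held no outlying array, so they cannot show how the fit handles 1. Groups came from the sample titles.

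All members were accounted for. In each helper list every gene past the threshold in the 6-array or 5-array fit was named, otherwise up to 3 by smallest p in the 5-array fit; of the marker lists the mean level per array was given, with a few genes. Mbd2 and Foxp3 served as label checks. Cytokine genes, Ccr8, Cyp1a1, Eif2s3y and the named T cell markers other than Foxp3 were added after their values were seen. So were Hlx and Cd200. The members and lists were chosen with earlier results of these data known. Figures were drawn with matplotlib 3.10.9.

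The alternatives were no filter, dropping the dimmest 60%, eBayes with trend and robust settings, array weights, another quantile normalization, centring on the median, a replicate block, dropping each array, an unadjusted p with a 1.5-fold difference, and averaging a gene's probe sets. The 4-array fit was chosen after seeing the data.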

Additional observations from a re-analysis of the deposited data

How the results depend on the processing

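With 6 arrays the count of member probe sets called was 0 under every alternative except array weights (5) and the fits that left out 1 array (0 to 1). The count over all probe sets, 14, was 8 without the filter, 2323 with array weights, 524 by unadjusted p and fold, and 0 to 190 with 1 array left out. In the 5-array fit, the 1 member call became 0 after another quantile normalization, 7 with array weights, 3 by unadjusted p and fold, 6 without knockout replicate 2 as well, and 0 with any of the other arrays left out. The count over all probe sets, 190, was 3783 with array weights, 889 by unadjusted p and fold, 2537 without knockout replicate 2 as well, 561 with the replicate block and 18 to 38 with another array left out. In the 5-array fit knockout replicate 3 is alone in its block. The log2 differences with the block therefore equal those without that array. Deviations of same-numbered arrays from their group means correlated at 0.15, -0.092 and -0.14. The wild-type means include the outlying wild-type replicate 3, so these values cannot settle whether the numbers pair the samples. With 6 arrays the replicate block gave 10 calls over all probe sets and 0 of members. The median log2 difference of all probe sets with 6 arrays was 0.15, against 0.063 after another quantile normalization and 0.20 after centring on the median. Dim probe sets (Maf, and a probe set each of Rora, Bcl6 and Ahr) had adjusted p from 0.256 to 0.992 when fitted without the filter on 5 arrays.

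With 6 arrays and array weights, Stat3 was -0.27, -0.38 and 0.027 on its probe sets from brightest to dimmest, Stat4 -0.48, Stat6 -0.093 and -0.17, and Ahr -0.16, each of the opposite sign to the unweighted fit. After another quantile normalization Stat3 (brightest) was -0.28 and Stat4 -0.057. With 1 array left out, Tbx21 ranged from -0.36 to 0.13, the Stat3 probe sets from -0.20 to 0.27, -0.28 to 0.87 and -0.43 to 0.037, Stat4 from -0.51 to 0.34, Stat6 from -0.15 to 0.84 and -0.21 to 0.56, and Ahr from -0.085 to 0.66. In the 5-array fit, Ahr was 0.034 with the replicate block, and with another array left out it ranged from -0.18 to 0.034, Bcl6 from -0.023 to 0.19 and the dimmest Stat3 probe set from -0.043 to 0.11. The cause of these changes was not tested.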
